A study of Homo sapiens with 12 samples.

Results

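RARRES1 and 8 other genes of retinoid handling and response were followed through 12 RNA sequencing libraries of PC9, a line of human lung adenocarcinoma cells that depends on mutant EGFR. The genes are RARRES1, RARRES2, STRA6, CRABP2, DHRS3, RARA, RARB, RARG and CYP26B1, which is 9 of the 62754 genes in the deposited table, and they were taken by matching Ensembl identifiers to these symbols. RARRES1 was chosen because its level was higher in the knockout and in both drug states, so its levels are given here as a description without a test. The other genes entered because of their known role in retinoid biology, but the choice was made with earlier results of these data known. Of those 8, 7 had enough counts to be tested.

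All 12 libraries came from PC9 cells of a subclonal line, grown in RPMI-1640 medium with fetal bovine serum. The first group was TDP1 wild-type and untreated, and is called WT below (untreated WT in the plots). The second was TDP1 wild-type after 7 days in 1 µM erlotinib, a drug that blocks the EGFR kinase, which the labels call drug-tolerant cells (DTC). The third was TDP1 wild-type after 28 days in the same dose, the drug-tolerant expanded cells (DTEC). The last was the TDP1 knockout line KO2 without drug (KO). TDP1 is an enzyme that frees DNA ends from trapped topoisomerase I, and the series title names such trapped complexes as drivers of resistance to EGFR-targeted drugs. Each group had 3 cultures, which per the labels were split from a shared starting flask and then grown apart, so p-values measure the spread between these cultures. KO is 1 knockout line, so the loss of TDP1 and other features of that line cannot be told apart. Knockout cells under erlotinib are not analysed here, and erlotinib is the only agent that the labels name as a treatment. Comparisons of DTC, DTEC and KO with WT all use the same 3 WT libraries.

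Retinoids are vitamin A and its derivatives. Cells take up retinol through the membrane receptor STRA6, oxidise it first to retinaldehyde and then to retinoic acid, and carry retinoic acid to the nucleus on CRABP2. There it binds the retinoic acid receptors RARA, RARB and RARG, which sit on DNA with a retinoid X receptor partner and switch target genes on when the ligand is present. DHRS3 returns retinaldehyde to retinol and CYP26 enzymes hydroxylate retinoic acid for removal, and several of these genes are themselves targets of the receptors, which makes a feedback loop. RARRES1 and RARRES2 owe their names to their response to a retinoid in skin cells.

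Promoter sequence is shown first for 4 genes, because the best studied DNA element of this pathway is a direct repeat of a 6-base site and the promoters differ in whether they hold it. Each sequence is the 250 bases before a transcription start in RefSeq on GRCh38.p14, written 5′ to 3′ on the strand of the gene, and capitals mark the paired sites of a direct repeat. The windows are RARRES1 at chr3:158732458-158732707 on the minus strand, RARB at chr3:25428013-25428262 on the plus strand, CYP26A1 at chr10:93073643-93073892 on the plus strand and CYP26B1 at chr2:72147863-72148112 on the minus strand. CYP26A1 is not among the 9 genes and stands here as a relative of CYP26B1 that also clears retinoic acid.
RARRES1: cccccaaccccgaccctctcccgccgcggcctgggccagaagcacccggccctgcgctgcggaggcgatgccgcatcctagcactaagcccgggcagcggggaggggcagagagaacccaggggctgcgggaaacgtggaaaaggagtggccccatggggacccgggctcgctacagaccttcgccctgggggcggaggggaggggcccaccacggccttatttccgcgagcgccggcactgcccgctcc
RARB: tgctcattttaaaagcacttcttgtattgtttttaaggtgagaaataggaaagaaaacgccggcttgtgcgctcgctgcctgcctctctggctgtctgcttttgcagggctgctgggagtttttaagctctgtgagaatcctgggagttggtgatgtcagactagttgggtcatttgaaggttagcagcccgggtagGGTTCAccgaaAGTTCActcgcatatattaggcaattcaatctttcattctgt
CYP26A1: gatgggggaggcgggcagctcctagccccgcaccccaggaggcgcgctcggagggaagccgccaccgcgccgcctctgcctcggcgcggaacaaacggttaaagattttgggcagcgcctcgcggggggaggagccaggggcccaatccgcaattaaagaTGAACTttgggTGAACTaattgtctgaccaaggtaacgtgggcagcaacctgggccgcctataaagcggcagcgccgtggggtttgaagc
CYP26B1: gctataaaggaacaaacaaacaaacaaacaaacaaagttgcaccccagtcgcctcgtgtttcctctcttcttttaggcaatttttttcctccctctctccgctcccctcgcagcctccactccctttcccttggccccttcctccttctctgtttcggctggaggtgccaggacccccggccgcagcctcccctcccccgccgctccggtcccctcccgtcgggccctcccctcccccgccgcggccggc

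The search covered 300 bases per window, from 250 before the start to 50 after it, on both strands. It used 4 receptor sites of 6 bases. The first was AGGTCA. The next was GGGTCA. Another, present in several known elements, was AGTTCA. The last was GGTTCA. Direct repeats were any pairing of them on one strand with a spacer of 1, 2 or 5 bases. All 9 genes had at least 1 window in the RefSeq table, with 20 windows in total, and 10 of those 20 held at least 1 site. Across all 35116 promoter windows of the same length 38.6% did, so sites of this kind are common. A direct repeat was found in 0.259% of all windows, and the repeat with a spacer of 5 in 0.0883%.

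Of the 9 genes RARB alone held a direct repeat. It reads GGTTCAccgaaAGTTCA on the strand of the gene, lies 53 to 37 bases before the start at position 25428263 of chromosome 3, and is found at 1 of the 4 RARB starts in the table. CYP26A1 held one on the other strand, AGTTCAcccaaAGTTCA, so that the capitals printed above are its reverse complement. It lies 90 to 74 bases before the start at position 93073893 of chromosome 10. The window of another CYP26A1 start, at position 93073475, held none of the 4 sites. The windows of RARRES1 and CYP26B1 held none of these 4 sites. A match describes letters in a window, and the absence of one says only that these letters are not in this window. The gene table does not say which start a read came from.

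The libraries held 25572691 to 38373679 estimated counts each. Levels are given in CPM, which are counts put on a common total per library, with TMM, a method that sets the bulk of genes level between libraries, with ± for the standard deviation (SD) over 3 libraries. TDP1, the targeted gene, was at 25.1 to 28.1 CPM in WT, 12.7 to 15.7 in DTC and 25.4 to 28.4 in DTEC, with 10.1 to 11.3 in KO. The KO libraries thus lay below all WT libraries (log2 fold change -1.29, edgeR quasi-likelihood adjusted p 1.3e-05), and so did those of DTC (-0.92, adjusted p 3.56e-06). Of 8 epithelial lung cancer markers, EPCAM, CDH1 and the keratins were abundant. The 8 together summed to 10790 to 11390 CPM in WT and 6294 to 7279 in DTC. In DTEC they summed to 9276 to 12150 and in KO to 11480 to 12310. The means of EPCAM, KRT8, KRT18 and KRT19 were lower in DTC than in WT. Those of KRT7 (1965 CPM in WT, 2071 in DTC) and CDH1 (285.5 and 297.7) were not. The lung lineage genes NKX2-1 and NAPSA stayed below 1 CPM in WT, DTEC and KO, and NAPSA reached 1.05 to 1.96 CPM in DTC. The 7 fibroblast markers summed to 7.993 to 8.912 CPM in WT, 55.01 to 57.76 in DTC and 11.15 to 14.13 in DTEC, with 13.47 to 15.07 in KO, nearly all of it COL1A1, with COL1A2 and COL3A1 at or near 0. The 5 immune markers, mainly CD68 with PTPRC near 0, spanned 26.91 to 33.63 CPM in WT, 38.15 to 54.78 in DTC and 35.03 to 40.87 in DTEC, with 25.94 to 29.17 in KO. The 4 endothelial markers, mainly PECAM1 and CDH5 with KDR near 0, spanned 58.48 to 61.4, 42.15 to 50.09, 121.8 to 141.6 and 75.77 to 77.25 CPM in the same order. The part of these shifts in the results was not tested. The DTC libraries spread most within their group, with a median absolute log2 deviation of 0.348 for DTC replicate 1 from the other DTC libraries against 0.089 to 0.256 for all others. In bulk RNA, fewer cells of a kind and less RNA per cell cannot be told apart.

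RARRES1 (ENSG00000118849, chr3:158696892-158732696 on the minus strand, GRCh38, gene model of GENCODE 29) encodes a membrane protein known as a putative tumour suppressor whose promoter is often methylated in cancers. Its level was 30.9, 26.5 and 29.7 CPM in the 3 WT libraries, 141, 164 and 173 in DTC and 284, 223 and 213 in DTEC, with 159, 159.8 and 163 in KO. Each library of the other 3 groups lay above each WT library. The means were 29.1 ± 2.26 CPM in WT, 159 ± 16.6 in DTC and 240.2 ± 38.4 in DTEC, with 161 ± 2.07 in KO (SD, n = 3). In descending order the groups were DTEC, KO, DTC and WT, and KO and DTC did not differ beyond their spread, since the KO values fell inside the range of DTC. The DTEC libraries lay above all others, with DTEC replicate 1 the highest. As fitted values, RARRES1 was 2.45 log2 units higher in DTC than in WT (5.475-fold), 3.05 higher in DTEC (8.26-fold) and 2.47 higher in KO (5.53-fold), and these are the values it was chosen on. Fitted with other ways of scaling the libraries, the DTC value ran up to 2.81, so the order of DTC and KO depends on the scaling: with total counts alone DTC stood at 183.8 CPM and KO at 152.1. All 12 deposited RARRES1 values were whole numbers, so they carry no sign of reads shared out with another gene.

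RARRES2 (ENSG00000106538, chr7:150338317-150341674, minus strand) encodes chemerin, a secreted protein that attracts immune cells. It had 0 counts in each of the 12 libraries, which allows a level of up to 0.0824 to 0.115 CPM (3 counts, counting error only). It was not tested.

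**Figure D1:**
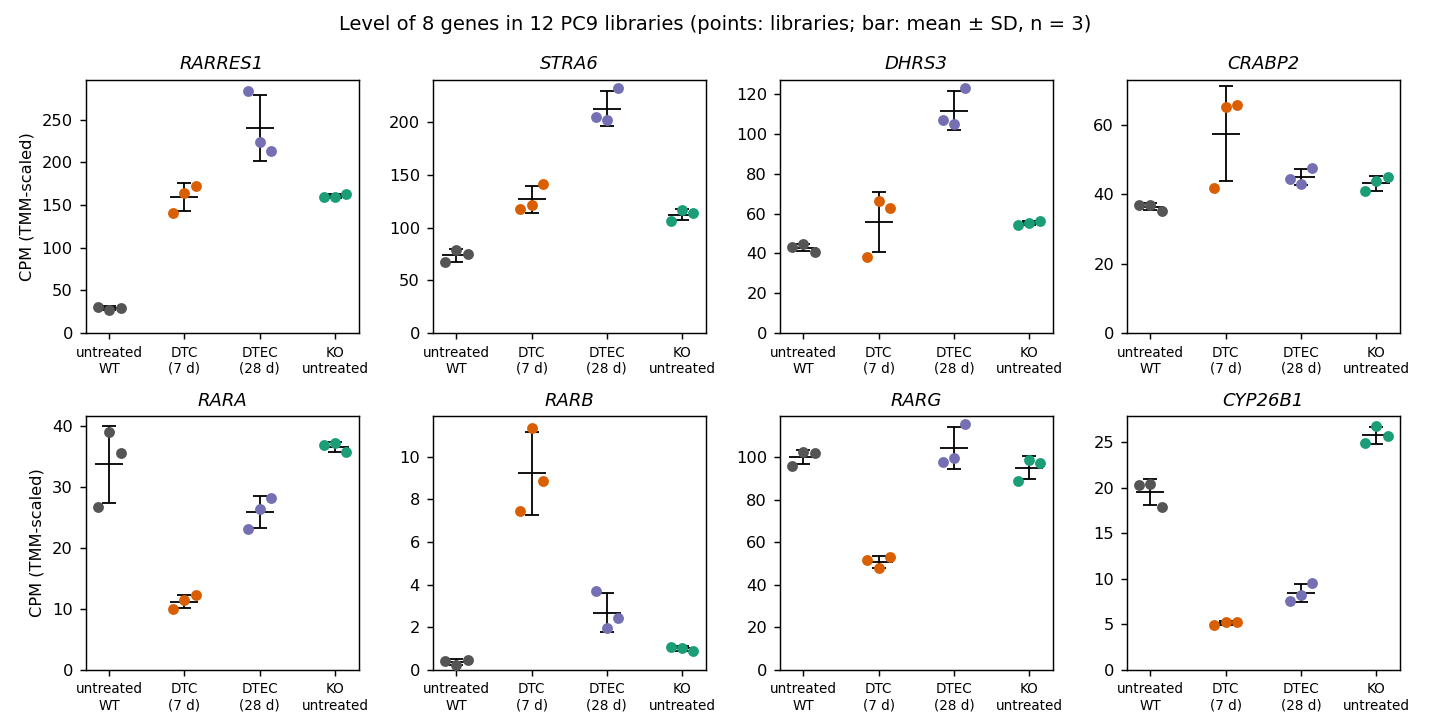
Level of 8 genes in CPM (vertical axis, linear, a separate scale per gene, starting at 0) in the 4 groups of 3 libraries. Points are libraries and bars the mean ± SD; RARRES1, STRA6 and DHRS3 peak in DTEC, RARB peaks in DTC at 9.22 CPM, and RARA, RARG and CYP26B1 are lowest in DTC.

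Among the 7 tested genes, all 7 were called in DTC against WT at an adjusted p under 0.05, of which 4 were higher (STRA6, CRABP2, DHRS3 and RARB) and 3 lower (RARA, RARG and CYP26B1). This has to be read against a background in which 67.3% of the 17115 tested genes were called, 34.0% higher and 33.3% lower. In DTEC against WT 5 of the 7 were called, with STRA6, DHRS3 and RARB higher and RARA and CYP26B1 lower, against 52.3% of all genes, 26.0% higher and 26.3% lower. Between DTEC and DTC all 7 were called, 5 higher in DTEC and 2 lower (RARB and CRABP2), against 55.4% of all genes, 28.8% higher and 26.6% lower. In KO 2 of the 7 were called, STRA6 and RARB, both higher, against 4.31% of all genes, 2.76% higher and 1.55% lower. The median log2 fold change of the 7 was 0.38 in DTC, 0.31 in DTEC, 0.75 between DTEC and DTC, and 0.37 in KO, and over all tested genes it was 0.06, 0.02, -0.01 and -0.01. With 7 genes moving in both directions these medians describe little, and the genes are therefore taken one by one. The KO count depended on single libraries. It was 1 without WT replicate 1 or 2 or KO replicate 1 or 2, where RARB lost its call, and 5 without DTC replicate 1, where CRABP2, DHRS3 and CYP26B1 joined, and it was also 5 with the compared libraries fitted alone. The background moved with it. Of all genes 738 were called in KO in the main fit and 321 to 426 without 1 of those WT or KO libraries. Without DTC replicate 1 it was 1520 genes, and with the compared libraries alone 2656.

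**Figure D2:**
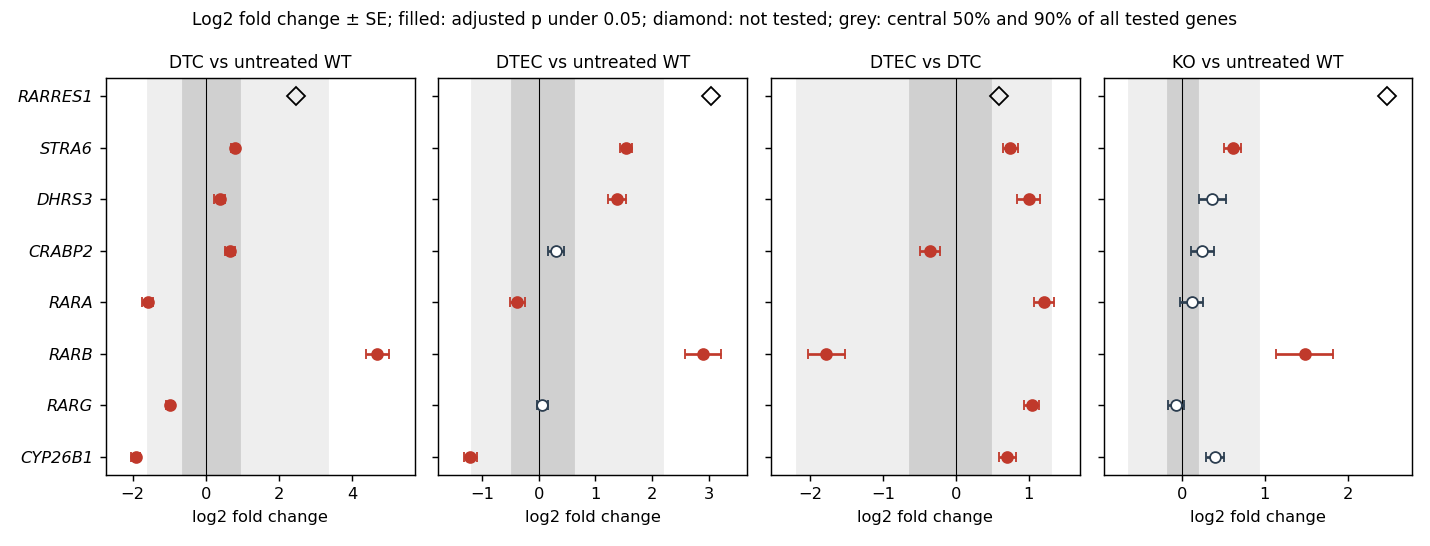
Log2 fold change (horizontal axis) of 8 genes in each of the 4 comparisons, with standard errors as whiskers; filled points passed an adjusted p of 0.05 and open circles did not, and the diamond marks RARRES1, which was not tested. Grey bands hold the central 50% and 90% of all 17115 tested genes: RARB at 4.68 in DTC lies outside the wider band, while STRA6 at 0.79 lies inside the narrower one.

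STRA6, the membrane receptor that brings retinol into cells from its plasma carrier (ENSG00000137868, chr15:74179466-74212267, minus strand), stood at 67.2, 78.3 and 74.99 CPM in WT, 117.2, 121.4 and 141.6 in DTC and 204.5, 202.1 and 231.9 in DTEC, with 106, 116.5 and 114 in KO. No library of one group overlapped those of another, and the order was DTEC, DTC, KO, WT, with the highest KO library just under the lowest DTC library. The log2 fold change was 0.79 in DTC (adjusted p 1.12e-05, SE 0.104), 1.53 in DTEC (adjusted p 6.34e-08, SE 0.106), 0.75 from DTC to DTEC (adjusted p 3.29e-05, SE 0.104) and 0.61 in KO (adjusted p 0.00403, SE 0.104). STRA6 therefore rose in all 3 groups, and it kept its call in each of the 4 comparisons under all 20 alternative settings.

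CRABP2, the cytosolic carrier that hands retinoic acid to its receptors (ENSG00000143320, chr1:156699606-156705816, minus strand), moved less. Its levels were 37.0, 37.0 and 35.3 CPM in WT, 41.7, 65.2 and 65.8 in DTC and 44.5, 43.0 and 47.7 in DTEC, with 40.9, 43.7 and 45.0 in KO. All DTC, DTEC and KO libraries lay above WT, but DTC replicate 1 lay below the DTEC libraries while the other DTC libraries lay well above them. CRABP2 rose in DTC (log2 fold change 0.66, adjusted p 0.000842, SE 0.141). In DTEC it was at 0.31 (adjusted p 0.082) while KO stood at 0.25 (adjusted p 0.414), neither of which passed the test. Both values passed with the compared libraries fitted alone (adjusted p 0.00698 and 0.013) and without DTC replicate 1 (0.00159 and 0.049). The DTEC value also passed with upper-quartile scaling (0.0274), total counts alone (0.0119) and a stricter filter (0.0473). The difference of -0.35 between DTEC and DTC (adjusted p 0.0459) was lost without any one of DTC replicates 2 and 3, DTEC replicates 1 and 2 and WT replicates 2 and 3, and with the compared libraries fitted alone, with adjusted p from 0.0528 to 0.155.

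DHRS3, the reductase that turns retinaldehyde back to retinol and is itself induced by retinoic acid in many cells (ENSG00000162496, chr1:12567910-12617731, minus strand), was highest at 28 days. It stood at 43.0, 44.5 and 40.9 CPM in WT, 38.4, 66.2 and 62.5 in DTC and 107, 105 and 123 in DTEC, with 54.1, 55.5 and 56.2 in KO. DTEC lay far above the other groups, whereas DTC was split, with replicate 1 below every WT library and the other libraries above. DHRS3 rose in DTEC against WT (1.38, adjusted p 6.49e-06, SE 0.159) and against DTC (1.00, adjusted p 9.71e-05, SE 0.157). Its call in DTC (0.38, adjusted p 0.044, SE 0.157) rested on DTC replicates 2 and 3. It was lost without either of them (0.112 and 0.107), without any single WT library (0.057 to 0.0985) and with the compared libraries fitted alone (0.103). In KO all 3 libraries lay above WT, yet the value of 0.37 did not pass (adjusted p 0.247). It passed in a fit of those 6 libraries (0.39, adjusted p 0.000935) and without DTC replicate 1 (0.38, adjusted p 0.00731).

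The 3 retinoic acid receptors went different ways. RARA (ENSG00000131759, chr17:40309192-40357643, plus strand), the receptor present in most tissues, was at 26.8, 39.1 and 35.6 CPM in WT, 10.0, 11.4 and 12.3 in DTC and 23.1, 26.5 and 28.3 in DTEC, with 36.9, 37.3 and 35.7 in KO. DTC lay below every other library. DTEC overlapped WT through WT replicate 1, the lowest of its group, and KO lay within the range of WT. RARA fell in DTC (-1.59, adjusted p 1.8e-07, SE 0.140) and rose from DTC to DTEC (1.21, adjusted p 5.89e-06, SE 0.139). Its lower level in DTEC than in WT (-0.38, adjusted p 0.028, SE 0.134) did not hold with upper-quartile scaling (0.121), total counts alone (0.209), a stricter filter (0.0544) or the compared libraries alone (0.0685). It was also lost without WT replicate 2 or 3, DTEC replicate 1 or 2 or KO replicate 2 (0.0504 to 0.178). In KO the value was 0.12 (adjusted p 0.722), and -0.01 without WT replicate 1.

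RARG (ENSG00000172819, chr12:53210567-53232980, minus strand), the receptor typical of epithelia such as skin, was at 96.2, 102 and 102 CPM in WT, 51.8, 47.8 and 53.1 in DTC and 97.8, 99.96 and 116 in DTEC, with 88.9, 98.9 and 97.6 in KO. Only DTC stood apart, with all its libraries below those of the other groups. RARG fell in DTC (-0.98, adjusted p 5.67e-07, SE 0.0962) and was higher in DTEC than in DTC (1.04, adjusted p 7.56e-07, SE 0.0963). Against WT it was at 0.06 in DTEC (adjusted p 0.608; -0.03 without DTEC replicate 3) and at -0.08 for the knockout (adjusted p 0.752). The lower levels of RARA and RARG in DTC kept their direction and call under each scaling tried.

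RARB (ENSG00000077092, chr3:25174332-25597932, plus strand), the receptor whose own gene carries the direct repeat printed above and which is silent in many carcinomas, was scarce in untreated cells. It stood at 0.388, 0.202 and 0.462 CPM in WT, 7.47, 11.3 and 8.85 in DTC and 3.68, 1.95 and 2.42 in DTEC, with 1.09, 1.04 and 0.885 in KO. In the WT libraries these levels are 13, 6 and 16 counts, and in KO 31, 32 and 32 counts. The 4 groups did not overlap, in the order DTC, DTEC, KO, WT, which differs from that of RARRES1 and STRA6 in having DTC on top. RARB rose in DTC (4.68, 25.7-fold, adjusted p 1.31e-08, SE 0.316) and in DTEC (2.91, 7.51-fold, adjusted p 4.49e-06, SE 0.320), and was lower in DTEC than in DTC (-1.77, adjusted p 4.51e-05, SE 0.254). In KO it was higher by 1.48 (2.79-fold, adjusted p 0.0247, SE 0.343). That last call was lost without WT replicate 1 or 2 or KO replicate 1 or 2, with adjusted p from 0.0725 to 0.0844. Of the 12 deposited RARB values 9 were whole numbers and the others carried decimals, as estimated counts do where reads fit more than one feature.

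The receptors were set side by side as CPM per kilobase of exon, which allows levels of different genes to be compared. RARG was at 19.5 CPM per kilobase in WT, 9.93 in DTC and 20.4 in DTEC, with 18.6 in KO, and RARA at 7.15, 2.37, 5.49 and 7.75. RARB took 0.358% ± 0.143 of the summed level of the 3 receptors in WT, 16.8% ± 3.44 in DTC and 2.76% ± 1.07 in DTEC, with 1.02% ± 0.133 in KO (SD, n = 3). RARG held the largest share in every library, from 63.0% in DTC to 77.3% in DTEC. RARA held 26.5% ± 3.13 in WT, 16.0% ± 1.05 in DTC and 20.6% ± 1.16 in DTEC, with 29.2% ± 1.31 in KO. The RARB shares of any pair of compared groups did not overlap. The two-sided exact permutation p was 0.1 in each of the 4 comparisons, which is the smallest that 3 libraries against 3 allow, so this test cannot reach 0.05. The shares use the union of annotated exons as length and were computed after the levels had been seen. With the length of the longest transcript the DTC share was 12.53%.

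**Figure D3:**
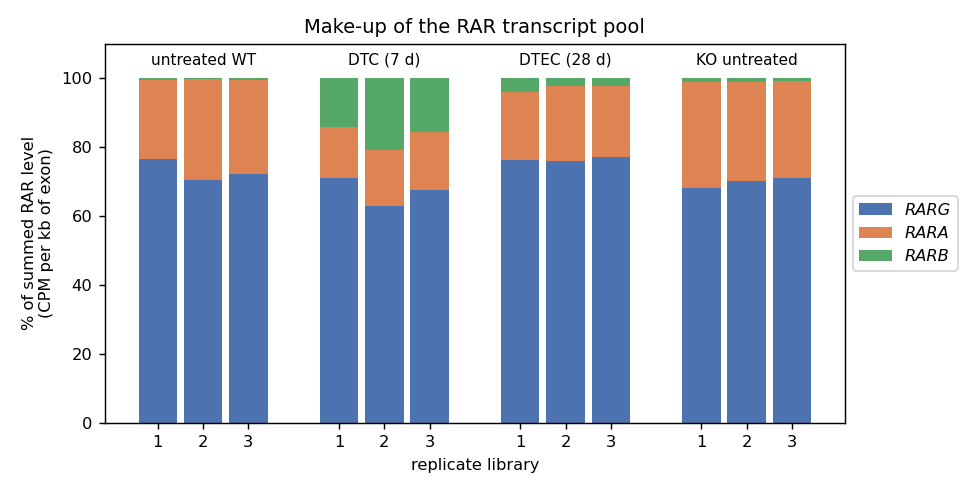
Share of RARG, RARA and RARB in their summed level (vertical axis, percent, from CPM per kilobase of exon) in each of the 12 libraries (horizontal axis, replicates by group). RARB is a thin sliver in WT and takes 14.2% to 20.7% in the DTC libraries, about as much as RARA.

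CYP26B1, a hydroxylase that clears retinoic acid (ENSG00000003137, chr2:72129238-72148038, minus strand), went against its relative CYP26A1 in the drug. CYP26B1 was at 20.3, 20.4 and 17.8 CPM in WT, 4.93, 5.30 and 5.28 in DTC and 7.52, 8.21 and 9.56 in DTEC, with 24.9, 26.7 and 25.7 in KO. No groups overlapped, with KO at the top and DTC at the bottom. CYP26B1 fell in DTC (-1.91, adjusted p 5.05e-09, SE 0.116) and in DTEC (-1.21, adjusted p 9.55e-07, SE 0.112), and was higher in DTEC than in DTC (0.71, adjusted p 0.00016, SE 0.117). In KO it was at 0.40 (adjusted p 0.0509, SE 0.108), just short of the threshold. That value passed under DESeq2 (0.0142), upper-quartile scaling (0.0428), total counts alone (0.0209), a stricter filter (0.0379), the compared libraries alone (0.00301) and without DTC replicate 1 (0.0196), DTEC replicate 1 (0.0346) or DTEC replicate 3 (0.0241).

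CYP26A1, the hydroxylase best known as a direct target of the receptors and the gene with the direct repeat on the other strand, belongs to the wider lists below. It stood at 1.37, 1.18 and 1.67 CPM in WT, 2.77, 3.00 and 2.52 in DTC and 4.26, 3.13 and 4.07 in DTEC, with 3.26, 2.33 and 2.63 in KO. All libraries of the other groups lay above WT. CYP26A1 rose in DTC (0.97, adjusted p 0.00113, SE 0.215), in DTEC (1.44, adjusted p 6.74e-05, SE 0.214) and in KO (0.95, adjusted p 0.0222, SE 0.215). The KO call was lost without WT replicate 1 or 2 or KO replicate 1 or 3 (0.0569 to 0.0943). Per kilobase CYP26B1 stood at 3.89 CPM and CYP26A1 at 0.474 in WT, and at 1.03 and 0.930 in DTC.

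**Figure D4:**
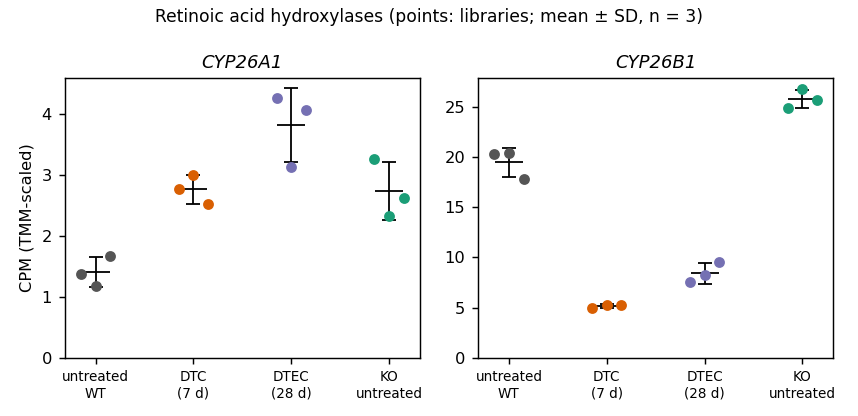
Levels of CYP26A1 and CYP26B1 in CPM (vertical axes, linear, starting at 0, separate scales) in the 4 groups, with points for libraries and bars for the mean ± SD of 3. CYP26A1 runs from 1.41 CPM in WT to 3.82 in DTEC, while CYP26B1 runs from 19.5 in WT down to 5.17 in DTC and up to 25.8 in KO.

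The other genes of the pathway were taken from 4 lists with 92 genes in all, of which 61 had enough counts to be tested and 31 had not. The lists were drawn up with earlier results of these data known, so their shares of calls are descriptions. In DTC 20 of the 61 were higher and 30 lower, 82.0% called against 67.3% of all tested genes (34.0% higher, 33.3% lower), with a median log2 fold change of -0.25 against 0.06 over all genes. The sign of that median depended on the settings, being 0.03 with upper-quartile factors (25 higher, 27 lower), 0.10 with total counts alone (27 and 27) and 0.07 over the 83 genes left without a filter (21 and 31). The median of all genes moved as well, to 0.343, 0.41 and 0.251 in these settings, and the list median stayed below it in each. In DTEC 31 were higher and 10 lower, 67.2% called against 52.3% of all genes, with a median of 0.40 against 0.02. From DTC to DTEC 34 were higher and 13 lower, 77.0% called against 55.4%, with a median of 0.48 against -0.01. In KO 5 were higher and 2 lower, 11.5% called against 4.31% (2.76% higher, 1.55% lower), with a median of 0.12 against -0.01. That KO count of 7 was 2 to 4 without any one WT or KO library and 11 without DTC replicate 1. Of all genes 738 were called in the main fit, 321 to 426 without any one WT or KO library and 1520 without DTC replicate 1. Counted over the 61 genes together, more were lower than higher in DTC under every scaling tried except total counts alone, where the numbers were equal. In DTEC more were higher than lower under every scaling tried. The separate lists differed, and those of uptake and of oxidation had medians of 0.27 and 0.14 in DTC.

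**Figure D5:**
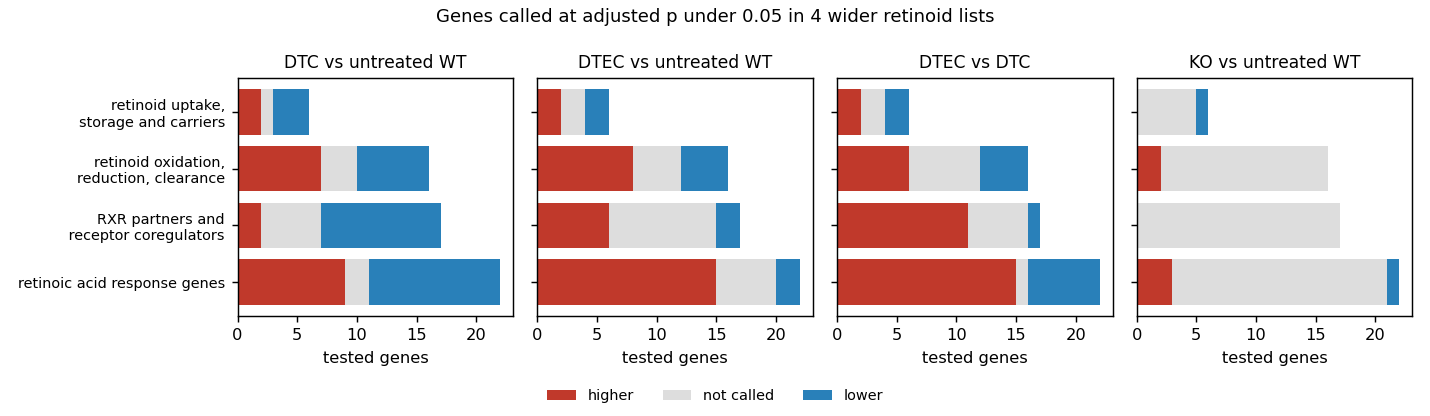
Number of tested genes (horizontal axis) called higher, not called or called lower in 4 retinoid gene lists, in each of the 4 comparisons. In DTEC against WT 15 of 22 response genes were higher and 2 lower, where 26.0% of all tested genes were higher and 26.3% lower. In KO most genes of every list were not called, and of all tested genes 4.31% were called.

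Of 14 genes of uptake, storage and transport 6 were tested. In DTC 2 were higher and 3 lower, in DTEC 2 and 2, from DTC to DTEC 2 and 2, and in KO 0 and 1. The shares called were 83.3%, 66.7%, 66.7% and 16.7%, against 67.3%, 52.3%, 55.4% and 4.31% of all genes, and with 6 genes a single gene is 16.7% of the list. FABP5, a fatty acid binding protein that can also carry retinoic acid, fell from 41.8 CPM in WT to 12.6 in DTC (-1.72, adjusted p 7.85e-06) and 3.29 in DTEC (-3.67, adjusted p 6.34e-08). In KO it was at 22.7 CPM (-0.88, adjusted p 0.0287), a call lost when any one WT or KO library was left out (0.0739 to 0.165), and only 2 of its 12 deposited values were whole. LRAT, which esterifies retinol for storage, fell from 2.73 to 1.08 CPM in DTC and 0.905 in DTEC (adjusted p 0.00032 and 0.000155). LRP1, a large endocytic receptor, rose from 28.6 to 56.7 CPM in DTC and 91.3 in DTEC (adjusted p 3.84e-05 and 6.72e-07).

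Of 25 genes of oxidation, reduction and clearance 16 were tested. In DTC 7 were higher and 6 lower, in DTEC 8 and 4, from DTC to DTEC 6 and 4, and in KO 2 and 0. That was 81.2%, 75%, 62.5% and 12.5% of the list, where all genes had 67.3%, 52.3%, 55.4% and 4.31%. AKR1B10, a reductase that accepts retinaldehyde among other substrates, fell from 1405 to 125 CPM in DTC (-3.49, adjusted p 9.94e-12) and was at 958 in DTEC (-0.55, adjusted p 0.00011). Only 1 of its 12 deposited values was whole, and it has a near copy in AKR1B15, so its exact level is uncertain. AKR1B15 was far scarcer, at 2.43 CPM in WT, 9.12 in DTC and 7.85 in DTEC, where its libraries ran from 4.2 to 11.5. Only 1 of the 12 deposited AKR1B15 values was whole, so its level is uncertain too. RDH10, which oxidises retinol to retinaldehyde, was at 67.1 CPM in WT and rose to 140 in DTEC (1.06, adjusted p 1.9e-05). In DTC it was at 48.3 CPM (-0.48, adjusted p 0.00688), which did not pass with upper-quartile factors (0.21) or total counts alone (0.445). RDH10 also lost its DTC call without DTC replicate 2 (0.0547) or DTC replicate 3 (0.0558). In KO it was at 98.3 CPM (0.55, adjusted p 0.0352), which did not pass without any one WT or KO library (0.0822 to 0.119), and 4 of its 12 deposited values were whole. DHRS9, another retinol dehydrogenase, rose from 1.31 to 4.72 CPM in DTEC (1.85, adjusted p 0.000472). ALDH1A2, which makes retinoic acid, was scarce throughout, at 0.137 CPM in WT, 1.98 in DTC and 1.52 in DTEC (adjusted p 3.68e-05 and 0.00019). Its relative ALDH1A3 was far more abundant, at 911 CPM in WT, 764 in DTC (-0.25, adjusted p 0.0556), 484 in DTEC (-0.91, adjusted p 1.18e-05) and 859 in KO. ALDH1A3 was named after its values had been seen.

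Of 20 receptor partners and coregulators 17 were tested. In DTC 2 were higher and 10 lower, with a median log2 fold change of -0.77, and the count of 10 lower was the same with upper-quartile factors and with total counts alone. In DTEC 6 were higher and 2 lower, from DTC to DTEC 11 and 1, and in KO 0 and 0 by edgeR, where 2 had an unadjusted p under 0.05 and DESeq2 called 2 higher. In DTC 70.6% of the list was called in either direction against 67.3% of all genes, and in DTEC 47.1% against 52.3%. From DTC to DTEC it was 70.6% against 55.4%. The DTC and DTEC shares without regard to direction thus lie near the background. The split by direction in DTC does not, with 10 of 17 lower and 2 higher where all genes had 33.3% lower and 34.0% higher. With total counts alone the count of higher genes in DTC was 5. In DTEC all genes had 26.0% higher and 26.3% lower. In KO 4.31% of all genes were called. RXRA, the main partner of the receptors, fell from 154 to 70.2 CPM in DTC (-1.13, adjusted p 2.75e-06) and was at 169 in DTEC (0.13, adjusted p 0.405). NRIP1, a corepressor that ligand-bound receptors recruit, fell from 106 to 39.1 CPM in DTC (-1.44, adjusted p 1.82e-07) and stood above WT at 142 in DTEC (0.42, adjusted p 0.0102). NCOA2, a coactivator, was at 19.4 CPM in WT, 18.8 in DTC and 42.0 in DTEC, where it rose by 1.11 (adjusted p 2.02e-05). CITED2, a transcriptional coregulator, rose from 32.4 to 206 CPM in DTC (2.67, adjusted p 1.08e-10) and 107 in DTEC (1.73, adjusted p 1.41e-08). EZH2, the enzyme that lays down the repressive histone mark of polycomb, fell from 64.9 to 38.1 CPM in DTC and 33.2 in DTEC (adjusted p 8.03e-06 and 2.25e-06).

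Of 33 genes listed as responding to retinoic acid 22 were tested. In DTC 9 were higher and 11 lower, in DTEC 15 and 2, from DTC to DTEC 15 and 6, and in KO 3 and 1. Called in all were 90.9%, 77.3%, 95.5% and 18.2% of the list, against 67.3%, 52.3%, 55.4% and 4.31% of all genes. The list median was -0.36 in DTC (-0.07 with upper-quartile factors and -0.01 with total counts alone), 0.59 in DTEC, with 0.07 in KO. Over all genes the DTC median was 0.055, and it was 0.343 with upper-quartile factors and 0.41 with total counts alone. Many of these genes answer to other signals too, such as inflammatory ones in the case of ICAM1. PLAAT4, also known as RARRES3, was at 0.388, 0.202 and 0.288 CPM in WT, 6.12, 11.4 and 10.6 in DTC and 7.10, 4.66 and 3.63 in DTEC, with 0.316, 0.745 and 0.415 in KO. All DTC and DTEC libraries lay above the untreated ones, and KO overlapped WT. PLAAT4 rose in DTC (4.97, adjusted p 6.33e-08, SE 0.389) and in DTEC (4.10, adjusted p 1.27e-06, SE 0.391), and was at 0.73 in KO (adjusted p 0.479).

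ICAM1, an adhesion molecule, rose from 39.0 CPM to 386 in DTC and 156 in DTEC (adjusted p 2.4e-09 and 5.44e-07), and GPRC5B, an orphan receptor, from 28.4 CPM to 203 and 59.9 (adjusted p 6.65e-10 and 1.18e-05). Both were called in KO, at 67.6 CPM (0.80, adjusted p 0.0165) and 44.1 CPM (0.64, adjusted p 0.0132). Both KO calls were lost without WT replicate 1 or 3 or KO replicate 2 (0.0529 to 0.0729). Other response genes were lower at 7 days and higher at 28 days than in WT. TGM2, the tissue transglutaminase long used as a marker of retinoid action, was at 819 CPM in WT, 298 in DTC (-1.46, adjusted p 3.1e-07) and 1221 in DTEC (0.58, adjusted p 0.00226). DHRS2, a reductase of the same family as DHRS3, was at 418, 85.9 and 549.7 CPM in the same groups (adjusted p 2.71e-10 and 0.00288) and at 288 in KO (-0.54, adjusted p 0.00499). The orphan nuclear receptor NR2F1 was at 6.58, 2.27 and 11.2 CPM (adjusted p 6.58e-05 and 0.0103), and its DTEC call was lost without DTEC replicate 3 (0.0852). CYP24A1, the vitamin D hydroxylase, rose from 4.89 to 6.67 CPM in DTC and 17.6 in DTEC (adjusted p 0.00642 and 6.3e-08).

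The neighbours of RARRES1 on chromosome 3 were examined for a shift shared along the locus. GFM1, a mitochondrial translation factor (158644278 to 158692575, plus strand), was at 149 ± 9.33 CPM in WT, fell to 61.2 ± 11.8 in DTC (-1.28, adjusted p 1.13e-06) and 100.2 ± 13.7 in DTEC (-0.57, adjusted p 0.00245), and was at 138 ± 5.31 in KO (-0.11, adjusted p 0.747). LXN, a relative of RARRES1 by sequence, had 4 counts over all 12 libraries and was not tested. MFSD1, a lysosomal transporter (158732198 to 158829719, plus strand), has a gene span that overlaps that of RARRES1 by 499 bases on the other strand. MFSD1 was at 53.7 ± 2.495 CPM in WT, 70.8 ± 5.06 in DTC (0.40, adjusted p 0.0011, SE 0.0884), 74.8 ± 2.78 in DTEC (0.48, adjusted p 0.000423) and 80.7 ± 2.10 in KO (0.59, adjusted p 0.00176, SE 0.0885). MFSD1 thus rose in the same 3 groups as those in which RARRES1 was higher, by a smaller amount. The strand setting of the counting is not given in the sources used here, so reads from the shared stretch cannot be told apart between MFSD1 and RARRES1. Whole numbers made up all 12 deposited values of RARRES1 and 10 of the 12 of MFSD1. How many reads came from that stretch was not tested.

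The genes whose pattern was most like that of RARRES1 were ranked by Pearson's r of log2 CPM over the 12 libraries among 13687 genes. The points fall into 4 groups that share their treatment, so r mainly reflects the 4 group means and is a description. The highest were ABCA4 (r 0.98), BPIFB1 (0.97), ADSS1 (0.97), BICDL1 (0.97), MYCL (0.97) and PCDH7 (0.96). ABCA4, a transporter that moves retinaldehyde compounds in photoreceptors, was at 3.78 CPM in WT, 12.1 in DTC and 19.9 in DTEC, with 11.99 in KO. BPIFB1, a secreted airway protein, was at 1.55, 19.7, 21.9 and 16.3 CPM in the same order, and PCDH7, a protocadherin, at 40.1, 103, 144 and 111. Of the 7 tested genes STRA6 was nearest (r 0.86, rank 89), followed by RARB (0.72, rank 680), DHRS3 (0.70, rank 801) and CRABP2 (0.59, rank 1733). RARG, RARA and CYP26B1 had r of -0.22, -0.33 and -0.45. Of 55 genes of the wider lists that could be ranked 1 stood above STRA6, namely CYP26A1 (r 0.94, rank 13).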

How the data were processed

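RNA was sequenced from 12 PC9 libraries in 4 groups of 3. The authors deposited 1 table of expected counts, estimated read numbers per gene without scaling to depth. The submitters' processing notes name RSEM 1.3.1, Bowtie2 2.5.2, DESeq2 1.40.2 and GRCh38, without role or order; the annotation release and strand setting are not given in the sources used here. Per the labels, polyadenylated RNA was prepared with the TruSeq Stranded mRNA kit, and all libraries were assigned to 1 batch, so no comparison between batches could be made. The table held 0 columns of other samples.

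Symbols were found for 62700 of 62754 identifiers. Coordinates and exon lengths are those of GENCODE 29 on GRCh38, which may not be the annotation counted against, and promoters those of RefSeq on GRCh38.p14. Expected counts were rounded and tested with edgeR 4.0.16 (R 4.3.3, limma 3.58.1). Genes kept by filterByExpr numbered 17115 and held 99.891% to 99.964% of the counts of a library. The 12 libraries were fitted together with TMM factors, 1 mean per group and robust quasi-likelihood tests, with Benjamini-Hochberg adjustment over the 17115 genes and a threshold of 0.05. The procedure was run on simulated libraries, drawn from the WT means with a fixed spread and with changes placed in KO alone. That setting does not cover the drug states or the uneven DTC libraries. Libraries of 25572691 to 38373679 counts put the floor of 3 counts at 0.0824 to 0.115 CPM; intervals and floors cover counting error only.

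Alternatives were DESeq2 1.42.0, other scaling factors, other count filters, the compared libraries alone, a replicate block and leaving out each library. Genes named beside the 9 are TDP1, 3 neighbours or relatives of RARRES1, the 6 genes most like RARRES1, and from each list and comparison the 3 called genes with the largest change and a mean of at least 1 CPM; some genes that this rule took are not reported here. The genes and lists were chosen with earlier results of these data known. Figures were drawn with Python 3.11.15 and matplotlib 3.10.9.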

Additional observations from a re-analysis of the deposited data

Results flagged for a closer look

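The 7-day and 28-day drug states share their control, so the difference between their effects is the direct comparison of DTEC with DTC, and each gene below passed that edgeR test at an adjusted p under 0.05. Among the 7 tested genes the log2 difference, DTEC minus DTC, was 1.21 for RARA, -1.77 for RARB, 1.04 for RARG, -0.35 for CRABP2, 1.00 for DHRS3, 0.71 for CYP26B1 and 0.75 for STRA6. RARB and CRABP2 were the ones that stood lower at 28 days. The CRABP2 call was lost without any one of DTC replicates 2 and 3, DTEC replicates 1 and 2 and WT replicates 2 and 3. With the compared libraries fitted alone it was lost too (adjusted p 0.0528 to 0.155 over these settings). In this comparison 55.4% of all tested genes were called, so a call alone does not set these genes apart.

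For carriers and uptake the difference was -1.95 for FABP5 and 0.69 for LRP1. For enzymes it was 1.54 for RDH10, 2.95 for DHRS9, 2.94 for AKR1B10 and -0.75 for BCO2. For receptor partners and coregulators it was 1.26 for RXRA, 1.16 for NCOA2, 1.86 for NRIP1 and -0.94 for CITED2. For response genes it was -0.87 for PLAAT4, 2.04 for TGM2, 2.30 for NR2F1, -1.76 for GPRC5B, 2.68 for DHRS2, -1.30 for ICAM1 and 1.401 for CYP24A1. The values of BCO2 and PLAAT4 no longer passed when any one of DTC replicates 2 and 3 or DTEC replicates 2 and 3 was left out (adjusted p 0.0561 to 0.0884).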

How the results depend on the processing

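Over 3199 recomputed values of single genes, 3071 kept their direction and side of the threshold, 22 changed sign without being called before or after, 68 lost their call, 35 gained one and 3 moved without a test, all 3 being RARRES1 in DTC (2.74 with upper-quartile factors, 2.81 with total counts alone and 2.59 with a stricter filter). No called value changed sign. Of the 9 genes 2 values changed sign, RARA in KO (-0.01 without WT replicate 1) and RARG in DTEC (-0.03 without DTEC replicate 3). In KO against WT 738 genes were called in all, 1146 by DESeq2, 1147 without a filter, 2656 with the compared libraries alone, and 321 to 1520 when single libraries were left out (321 without WT replicate 1, 1520 without DTC replicate 1). Of the 7 tested genes 2 were called in KO, 5 with the compared libraries alone and 1 to 5 without single libraries. Of the wider lists 7 were called in KO, 16 with the compared libraries alone and 2 to 11 without single libraries, 2 to 4 without any one WT or KO library and 11 without DTC replicate 1. RARRES1 stood at 180.8 CPM in DTC and 151.6 in KO with upper-quartile factors, and at 26.22 in WT, 183.8 in DTC and 152.1 in KO with total counts alone. Without single libraries its KO level ran from 157.6 to 162.4 CPM. With the longest transcript as length, chosen after seeing the data, the RARB share was 12.53% in DTC and 0.732% in KO. The causes of these shifts were not tested.

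Among called genes, the part that was higher moved with total counts alone from 50.5% to 68.4% in DTC, from 49.7% to 63.7% in DTEC, from 51.9% to 37.4% between DTEC and DTC and from 64.1% to 78.8% in KO. Upper-quartile factors gave 65.0% in DTC and 38.7% between DTEC and DTC, and the compared libraries alone gave 52.6% in KO. The median of all genes in DTC went from 0.055 to 0.343 with upper-quartile factors, 0.41 with total counts alone and 0.251 without a filter.

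The replicate numbers were not taken to pair the libraries, since that needed r over 0.1 in every same-numbered pair: over 18 pairs r ran from -0.03 to 0.179, with 16 above 0 and 4 over 0.1. As a hint from the data that numbers share something, 8 of 12 libraries correlated best with their own number. With the replicate block 7, 5, 7 and 2 of the tested genes and 50, 41, 45 and 8 list genes were called in DTC, DTEC, DTEC against DTC, and KO, and 11775, 9255, 9732 and 887 genes in all. Depth limits RARB and PLAAT4 in WT and KO, and RARRES2 everywhere.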
